A study of Oryza sativa Indica Group with 6 samples.

Results

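The cellulose synthase superfamily of rice holds the cellulose synthases (CESA) and the cellulose synthase-like proteins (CSL). Its members were taken here as every gene whose symbol or synonym is CESA with a number, or CSLA, CSLC, CSLD, CSLE, CSLF or CSLH with a number. The reference annotation names 35 such genes, and 29 of them had a probe set on the array that is annotated to that gene alone, out of 17905 genes with such a probe set. The 29 genes were covered by 37 of 57194 probe sets, and for the 6 genes with several the probe set of highest mean was used. They are 6 *CESA* genes of the primary wall (*CESA1*, *CESA2*, *CESA3*, *CESA5*, *CESA6* and *CESA8*), the 3 of the secondary wall (*CESA4*, *CESA7* and *CESA9*) and 20 *CSL* genes. *CSLA3*, *CSLA4*, *CSLE6*, *CSLF3*, *CSLF4* and *CSLF9* were not analysed here.

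Total RNA came from seedlings of the *indica* cultivar 3037 (wild type) and of *sd37*, a semi-dwarf mutant that arose spontaneously in that cultivar and carries a point mutation in the cytochrome P450 gene *CYP96B4*. Both genotypes were 2 weeks old and had been raised in a growth chamber with 16 h of light at 26 °C and 8 h of dark at 18 °C. Each genotype had 3 biological replicates, numbered 1 to 3, with 1 Affymetrix Rice Genome Array for each. Only this 1 mutant line was compared, so the mutation and anything else that differs between the lines cannot be told apart.

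Plant cell walls get their strength from cellulose, which complexes of CESA proteins spin out at the plasma membrane. Growing cells use primary-wall CESA proteins, while cells that thicken their walls after growth, such as xylem vessels and fibres, use CESA4, CESA7 and CESA9, and rice plants lacking any of these have brittle stems. The CSL proteins make other wall polysaccharides: CSLA proteins make mannans and CSLC proteins the glucan backbone of xyloglucan (both known from Arabidopsis), and CSLF and CSLH proteins make the mixed-linkage glucan that is typical of grasses. CSLD proteins act in root hairs and other growing cells.

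The arrays with replicate number 1 stood apart. Their median signal was 51.1 in the wild type and 56.3 in *sd37*, against 32.4 to 34.4 on the other 4 arrays, and 35.3% to 38.8% of probe sets had a signal of at least 100. The geometric mean of the 9 hybridization control probe sets was 4516 and 4993 on the replicate 1 arrays and 2464 to 2664 on the others, and the 3′ to 5′ signal ratio of the actin control was 6.16 and 7.04 against 8.16 to 13.05. Of 3 leaf genes, *RBCS* (24608 to 52426) and *CAB2R* (11577 to 82318) had high signals on every array and *RBCS1* had low ones (10.9 to 33.3). Of 2 root genes, the silicon transporter *LSI1* was high (1726 to 4063) and *LSI2* low (1.4 to 8.2), and the shoot apex gene *OSH1* read 0.9 to 29.5. The labels and methods name seedlings, while a footnote to the study's list of changed genes speaks of apices, so the parts of the plant that were taken are not settled. The RNA was from tissue of many cell types, so fewer cells of a type and less RNA per cell cannot be told apart.

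Signals of a gene are given below for replicates 1, 2 and 3 in that order, first in the wild type and then in *sd37*. They are relative units on a linear scale and are compared between arrays, not between genes. Differences are log2 ratios of *sd37* over wild type, with the standard error (SE) of the limma fit to n = 3 arrays of each genotype. The median of all signals was 40.2. For 15 of the 29 genes every array lay at or above it, and for 6 genes every array lay under it.

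The first comparison asked whether the *sd37* mutation went with a different signal of wall polysaccharide synthases. None of the 29 genes passed the threshold (adjusted p under 0.05 and 1.5-fold or more), and neither did any of the 57194 probe sets (0%). With p left unadjusted and under 0.05, and the same fold, 0 of the 29 genes passed with limma, against 2.18% of all probe sets. By analysis of variance 1 of the 29 passed (*CSLF8*), against 731 higher and 668 lower of the 57194 probe sets. With the replicate number as a block, 4 probe sets of the array were called higher and 2 lower, none of them of this superfamily, and the smallest adjusted p of a member was 0.823. Of the 29 differences 14 lay below 0 and 15 above, with a median of 0.01 beside 0.024 for all probe sets.

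The secondary-wall gene *CESA4* (LOC4324625) had signals of 159.4, 159.4 and 239.7 in the wild type and of 75.1, 205.5 and 22.0 in *sd37*. The *sd37* arrays of replicates 1 and 3 lay below every wild-type array, while that of replicate 2 lay within the wild-type range. The log2 difference was -1.39 (SE 0.76, adjusted p = 1), and it was -2.17 when *sd37* replicate 2 was left out (unadjusted p = 0.0143, adjusted p = 1) and -0.56 when *sd37* replicate 3 was left out. The other *CESA4* probe set read 211.6, 121.2 and 86.9 against 61.2, 152.8 and 39.4, with a difference of -0.87 (SE 0.62). In it, too, *sd37* replicates 1 and 3 were the lowest arrays.

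*CESA7* (LOC4348853), whose product works in the same complex, gave 138.1, 70.4 and 46.0 in the wild type and 22.8, 244.5 and 33.4 in *sd37*. Again *sd37* replicates 1 and 3 were lower than any wild-type array, and here *sd37* replicate 2 lay above them all. The difference was -0.42 (SE 0.94, adjusted p = 1), and -1.47 without *sd37* replicate 2.

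*CESA9* (LOC4347093), the remaining secondary-wall gene, had low signals that varied within each genotype. They were 27.6, 2.7 and 30.3 in the wild type and 6.7, 25.0 and 30.0 in *sd37*, a difference of 0.38 (SE 1.21, adjusted p = 1). Over the 3 genes the median difference between the genotypes was -2.04 in replicate 1, 1.80 in replicate 2 and -0.46 in replicate 3. The median of the differences over all arrays was -0.42. It ranged from -1.47 (without *sd37* replicate 2) to 0.24 (without *sd37* replicate 1) as each array was left out, and was 0.67 over replicates 2 and 3 alone, so it has no settled direction.

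**Figure D1:**
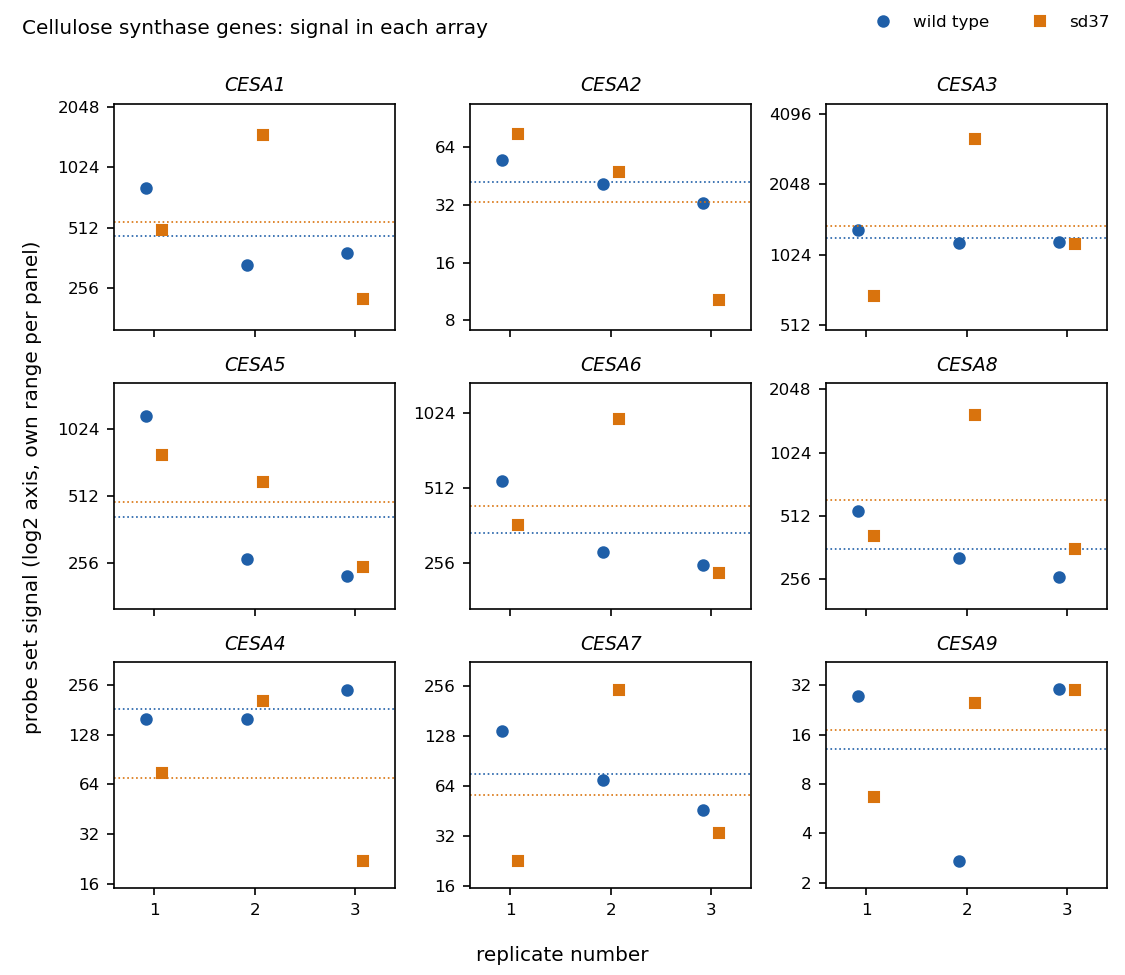
Signal of the 9 *CESA* genes (log2 axis with its own range in each panel) against replicate number, 1 point for each array, with dotted lines at the geometric mean of each genotype. In *CESA1*, *CESA3*, *CESA6*, *CESA7* and *CESA8* the point of *sd37* replicate 2 lies above all others, and in *CESA4* the points of *sd37* replicates 1 and 3 (75.1 and 22.0) lie below all others.

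In 4 of the 6 primary-wall genes the highest array was *sd37* replicate 2, and *CESA2* and *CESA5* were highest on a replicate 1 array. *CESA8* (LOC4342699) read 542.7, 324.7 and 261.8 in the wild type and 410.8, 1545.5 and 357.8 in *sd37*, so that this array was 2.85 times the next highest. Its difference was 0.77 (SE 0.57, adjusted p = 1) and 0.10 without that array. *CESA3* (LOC4343049) read 1309.4, 1147.2 and 1160.8 against 685.4, 3210.3 and 1143.4. Its wild-type arrays were close together, while the *sd37* arrays spread to both sides of them, and the difference was 0.18 (SE 0.51).

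*CESA1* (LOC4337958) followed the same form, with 805.7, 332.9 and 383.3 in the wild type and 497.3, 1483.7 and 225.5 in *sd37* (0.23, SE 0.66). *CESA6* (LOC4342850) gave 546.9, 283.7 and 251.1 against 363.5, 965.4 and 232.9 (0.36, SE 0.55). In both genes the order of the arrays began with *sd37* replicate 2 and then wild-type replicate 1. Without *sd37* replicate 2 the differences of *CESA1*, *CESA3* and *CESA6* turned to -0.48, -0.44 and -0.22.

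*CESA5* (LOC4334710) had signals of 1161.5, 267.6 and 224.5 in the wild type and of 778.7, 589.1 and 246.4 in *sd37*. Both replicate 1 arrays were highest, *sd37* replicate 2 came next, and the difference between the genotypes was 0.23 (SE 0.68). *CESA2* (LOC4334515) read 55.0, 41.2 and 32.9 against 75.0, 47.6 and 10.2, with *sd37* replicate 3 the lowest array and a difference of -0.34 (SE 0.86). For each of the 6 primary-wall genes the adjusted p was 1. Their median difference was 0.23, and -0.33 with 4 of 6 below 0 when *sd37* replicate 2 was left out. Leaving out any other array gave 0.06 to 0.76.

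The reading of *sd37* replicate 2 was at least 1.5 times that of every other array in 5 of the 29 genes (17.2%), namely *CESA1*, *CESA3*, *CESA6*, *CESA7* and *CESA8*, beside 2.62% of all probe sets. All 5 were among the 9 *CESA* genes, and none of the 20 *CSL* genes showed it. The form was noticed in these signals, so the counts are a description. The median difference between the genotypes over the 6 primary-wall genes was -0.58 in replicate 1, 1.62 in replicate 2 and -0.06 in replicate 3. The median signal of the *sd37* replicate 2 array was 34.4, against 32.4 to 34.1 on the other arrays of replicates 2 and 3, and its hybridization controls (2464) were the lowest of the 6 arrays. Their part in the result was not tested.

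Probe sets of a gene did not always show the same order of arrays. The other probe set of *CESA3* was also highest on *sd37* replicate 2, with 64.9, 112.7 and 77.9 against 87.8, 190.0 and 99.8. That of *CESA1*, at low signals of 48.9, 23.4 and 4.9 against 14.8, 6.2 and 21.2, was not. For *CESA2* the other probe set, at low signals of 2.4, 0.9 and 1.7 against 2.6, 14.1 and 1.1, was highest on *sd37* replicate 2. The *CESA2* probe set used was not.

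**Figure D2:**
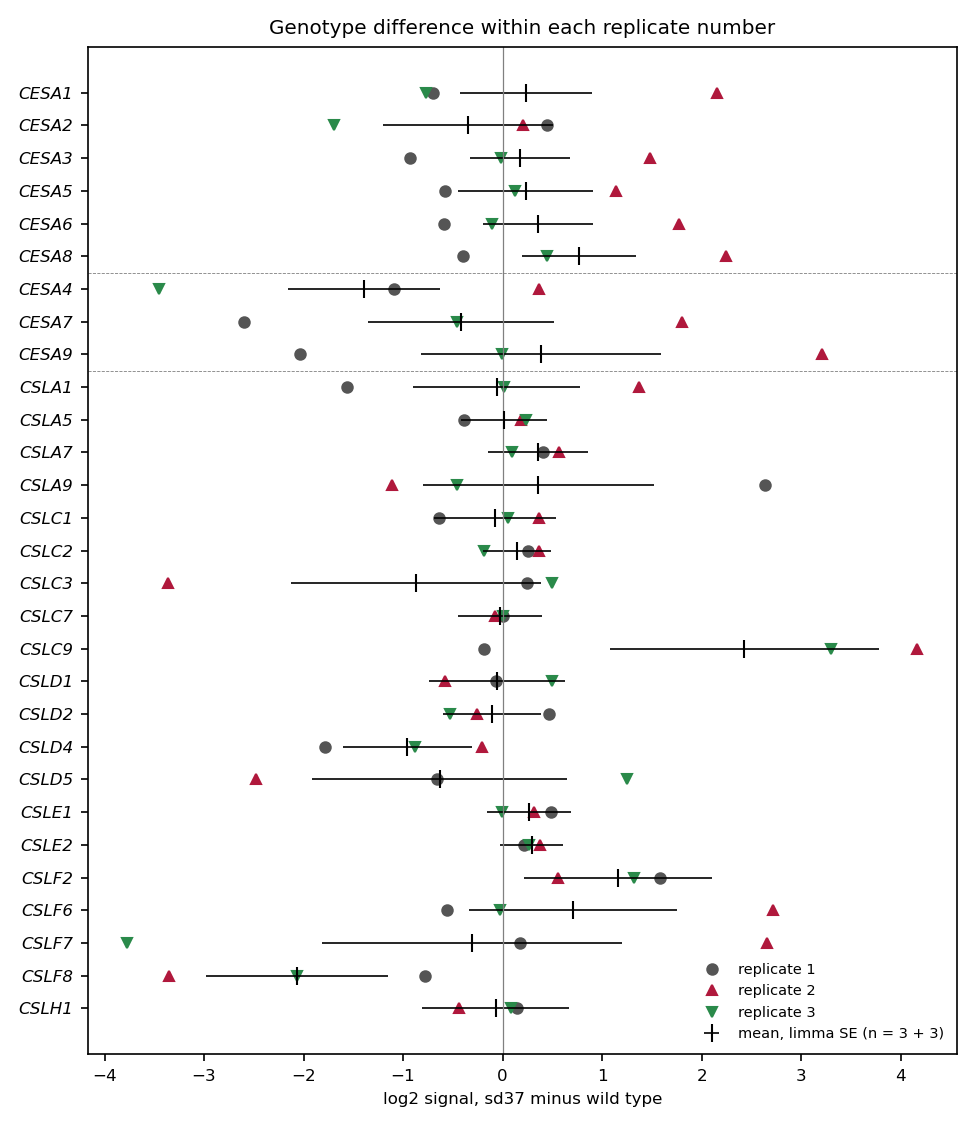
Difference of log2 signal, *sd37* minus wild type, for the 29 genes (rows), with 1 symbol for each replicate number and a tick with the limma SE for the mean over 3 arrays of each genotype. The symbols of replicate 2 lie to the right for most *CESA* genes (median 1.77) and those of replicate 1 to the left (median -0.70), while the 20 *CSL* genes have medians of 0.26 and 0.08.

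Among the *CSL* genes, 11 of the 20 differences lay below 0 and 9 above, with a median of -0.04. *CSLF8* (LOC4343552), of the mixed-linkage glucan family, was the member of smallest unadjusted p (0.0544). Its signals were low, 19.0, 24.4 and 26.0 in the wild type and 11.1, 2.4 and 6.2 in *sd37*. Its highest *sd37* signal was below its lowest wild-type signal, a separation that this gene alone showed among the 29 (3.4%) and for 2.87% of all probe sets. The difference was -2.06 (SE 0.92, adjusted p = 1). It was -0.52 when signals under 16 were set to 16, since all 3 *sd37* signals of the gene lay under that level.

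No member had all *sd37* arrays above all wild-type arrays, which 3.2% of all probe sets had. *CSLF2*, next to *CSLF8* in the genome with 1 annotated gene between them, read 3.1, 4.8 and 1.0 against 9.3, 7.1 and 2.5, and its difference was 1.16 (SE 0.95). All 6 signals lay under the median of all signals. *CSLF7* ranged from 0.4 to 31.9 and crossed between the genotypes, with a difference of -0.31 (SE 1.51).

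*CSLF6*, the main synthase of mixed-linkage glucan in rice leaves, had signals of 587.9, 79.1 and 62.5 in the wild type and of 399.6, 521.2 and 61.4 in *sd37*. Both replicate 1 arrays and *sd37* replicate 2 were high, and the other 3 arrays lay at 61.4 to 79.1. The genotype difference of 0.71 (SE 1.05) fell to 0.13 without *sd37* replicate 2. The other probe sets of *CSLF6* had low signals and did not show this gap between the arrays. They read 28.8, 25.2 and 6.9 against 39.0, 29.3 and 5.3, and 4.5, 7.1 and 5.6 against 18.0, 5.3 and 6.5. *CSLH1* (LOC4348359), which in barley also makes mixed-linkage glucan, read 1693.8, 521.2 and 382.4 against 1877.0, 385.4 and 403.4. It separated by replicate number and hardly by genotype, with a difference of -0.07 (SE 0.74, adjusted p = 1).

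Of the *CSLC* genes, *CSLC9* (LOC4334258) had the smallest unadjusted p (0.11). Its signals were 33.2, 1.5 and 1.4 in the wild type and 29.2, 27.0 and 13.8 in *sd37*. The genotypes lay together in replicate 1 and apart in replicates 2 and 3. The difference was 2.43 (SE 1.35, adjusted p = 1). Over replicates 2 and 3 alone it was 3.74 (unadjusted p = 0.0103, adjusted p = 0.494), without wild-type replicate 1 it was 3.93 (adjusted p = 0.931), and with signals under 16 set to 16 it was 0.19. *CSLC2* and *CSLC7* read 210.8 to 417.7 and 117.0 to 217.7, and *CSLC3* fell to 2.3 on *sd37* replicate 2 while its other arrays lay at 23.6 to 55.4.

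All 4 *CSLD* genes had a difference below 0, with a median of -0.37, and 1 of them lay below 0 when *sd37* replicate 2 was left out. *CSLD4* (LOC107276048), in which mutations make rice leaves narrow and rolled, had the smallest unadjusted p of the family (0.18). It read 67.0, 57.9 and 42.2 in the wild type and 19.5, 49.9 and 23 in *sd37*, with a difference of -0.96 (SE 0.65, adjusted p = 1). The arrays of *sd37* replicates 1 and 3 were the lowest, as in *CESA4*, and *sd37* replicate 2 lay between the wild-type arrays. Without *sd37* replicate 2 the difference was -1.37. *CSLD1*, needed for root hair growth in rice, ranged from 18.4 to 31.6, and *CSLD5* from 4.4 to 67.4.

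Among the mannan synthase genes, *CSLA7* (LOC4343994) had the smallest unadjusted p (0.501), with signals of 77.2, 70.6 and 49.8 against 102.9, 104.5 and 53.0 and a difference of 0.36 (SE 0.51, adjusted p = 1). Within each replicate number the *sd37* array was the higher. *CSLA9* read 4.8, 106.4 and 70.1 against 29.9, 49.4 and 51.1, so that wild-type replicate 1 was far below the rest. *CSLA1*, for which the annotation also gives the synonym *CSLA9*, went the other way on that array, with 118.7, 22.6 and 23.1 against 40.3, 58.4 and 23.3. The median difference of the 4 *CSLA* genes was 0.18.

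Both *CSLE* genes had a difference above 0. *CSLE2* (LOC4330583) read 174.7, 228.8 and 227.6 in the wild type and 203.8, 297.0 and 275.0 in *sd37*, the higher of the pair in each replicate number, with a difference of 0.29 (SE 0.31, adjusted p = 1). The other probe sets of *CSLE2* did not hold this order. They differed by 0.22 (SE 0.37) and -0.11 (SE 1.17), and both were lower in *sd37* in replicate 2 (-0.12 and -0.11). *CSLE1* differed by 0.27 (SE 0.43).

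**Figure D3:**
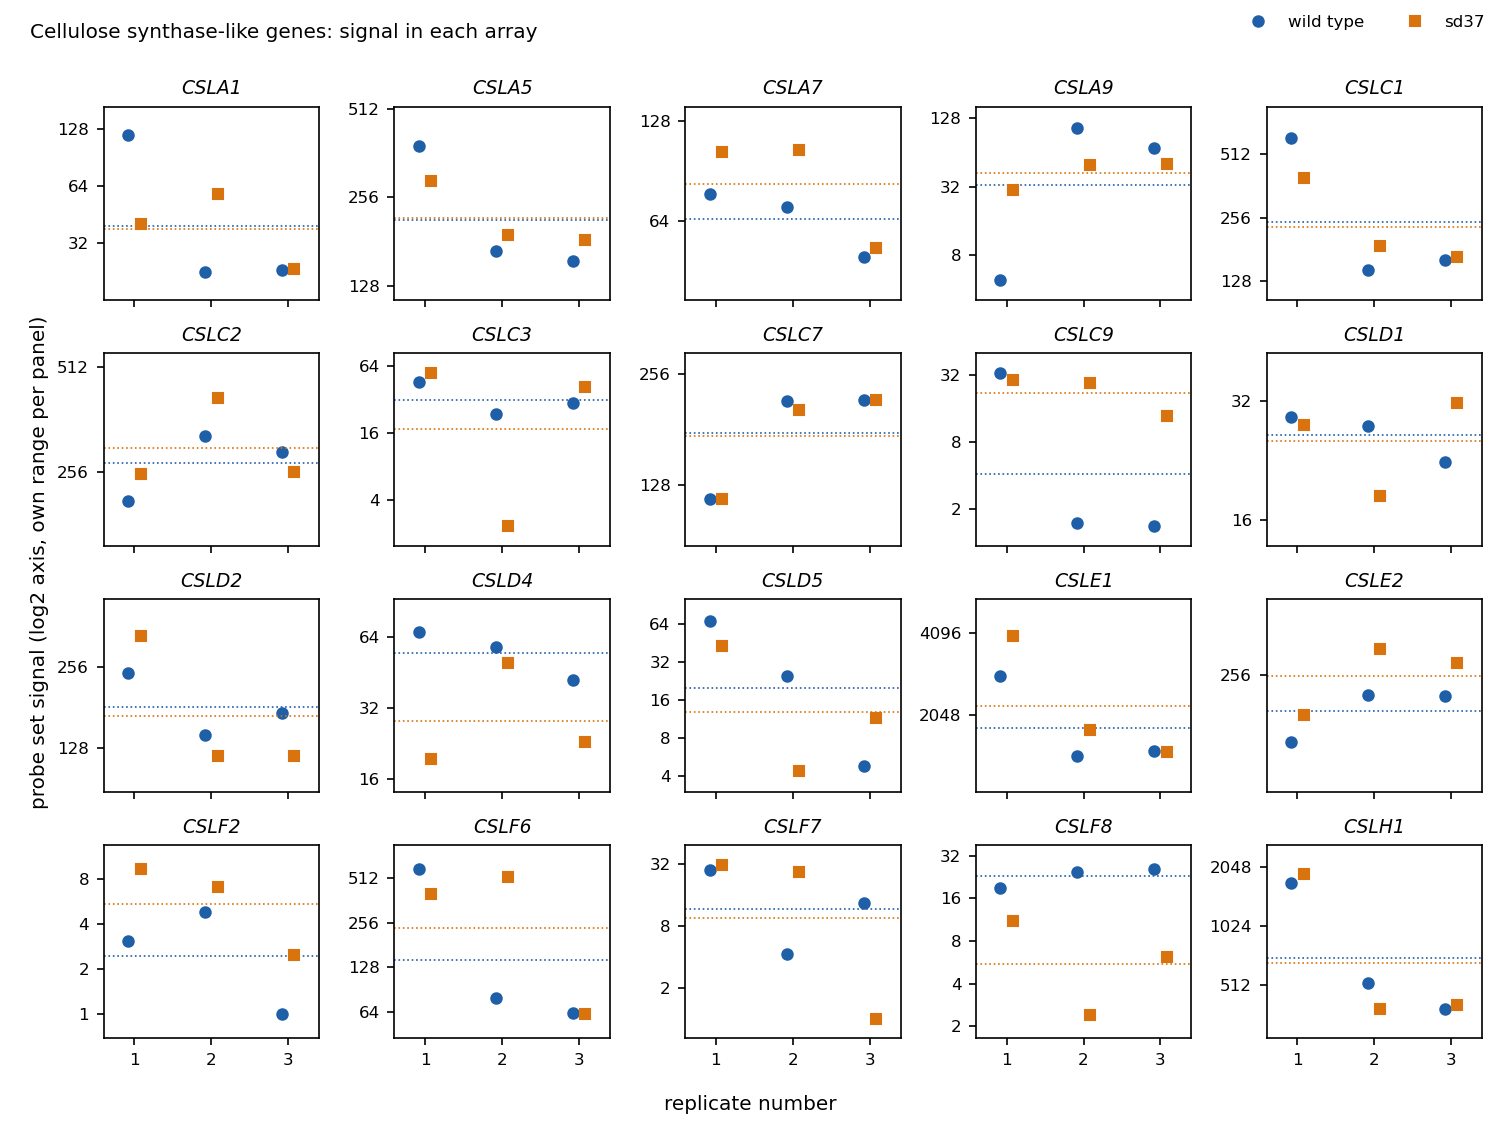
Signal of the 20 *CSL* genes (log2 axis with its own range in each panel, signals under 1 drawn at 1) against replicate number, 1 point for each array, with dotted lines at the geometric mean of each genotype. *CSLF8* has all *sd37* points below all wild-type points, and *CSLC1*, *CSLE1* and *CSLH1* have both replicate 1 points above the rest.

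The second comparison set the replicate 1 arrays against those of replicates 2 and 3, with the genotype in the fit. That replicate 1 be set apart was chosen with earlier results of these data known. In the deposited scale 6 of the 29 genes were called higher in replicate 1 at an adjusted p under 0.05 (20.7%), beside 10.3% of all probe sets, and 1 lower (3.4%), beside 11.5%. The median difference of all probe sets was itself 0.389, but it was -0.003 over those with a mean signal at or above the overall median. The level to read a member against thus depends on how strong its signal is. Dividing each array by its median moved the median of all probe sets to -0.276. That division moved the calls over all probe sets from 5894 higher and 6585 lower to 2374 higher and 14338 lower. Among the 29 genes it moved the calls from 6 higher and 1 lower to 3 higher and 4 lower. Quantile normalization gave 6 higher and 2 lower among the 29 genes, and 4913 higher and 6932 lower over all probe sets.

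*CSLH1* had the smallest adjusted p of the superfamily. Its geometric mean was 1780 in replicate 1 and 420.0 in replicates 2 and 3, a log2 difference of 2.09 (SE 0.17, adjusted p = 5.4e-05). *CSLE1* read 2848.6, 1444.9 and 1501.1 in the wild type and 4006.9, 1802.3 and 1486.8 in *sd37*, a difference of 1.12 (SE 0.13, adjusted p = 0.000397). *CSLC1* read 614.2, 145.5 and 161.7 against 395.3, 187.9 and 167.3, a difference of 1.58 (SE 0.25, adjusted p = 0.00184). In these 3 genes both replicate 1 arrays lay far above the other 4 in both genotypes, and they were called under each of the alternatives tried.

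*CESA5* was the only *CESA* gene called, at 1.64 (SE 0.37, adjusted p = 0.0126). *CSLD2* differed by 1.06 (SE 0.27, adjusted p = 0.0234), with signals of 243.3, 142.9 and 172.4 against 337.0, 119.4 and 119.6. *CSLA5* differed by 0.94 (SE 0.23, adjusted p = 0.0184), with 381.3, 167.9 and 155.8 against 291.0, 191.5 and 183.9. These 3 genes were no longer called after each array was divided by its median, where they differed by 0.97, 0.39 and 0.26. That scaling added *CSLA9* (-3.13), *CSLC2* (-1.13) and *CSLE2* (-1.11) as lower in replicate 1.

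*CSLC7* was the gene called lower, by -0.87 (SE 0.23, adjusted p = 0.0244). That call was lost when wild-type replicate 2, wild-type replicate 3 or *sd37* replicate 3 was left out. The gene read 117.0, 216.5 and 217.7 in the wild type and 117.4, 204.4 and 217.4 in *sd37*, so the genotypes lay on each other in every replicate number. *CSLF6* differed by 2.11 (SE 0.75, adjusted p = 0.0805) and was called when the replicate number was fitted with 3 levels. It was also called when *sd37* replicate 2 was left out, as were *CESA1* and *CESA6*.

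Both replicate 1 arrays lay above all others in 11 of the 29 genes (37.9%), beside 27.4% of all probe sets, and below all others in 4 (13.8%), beside 17.6%. Of the 9 *CESA* genes 2 had both replicate 1 arrays highest, and of the 20 *CSL* genes 9. The signal of the array, of its hybridization controls and of the actin ratio moved with replicate 1 as given above, and their part in these differences was not tested. Between replicates 2 and 3 no probe set was called by limma, and 1226 were higher and 786 lower by 1.5-fold or more when p was left unadjusted and under 0.05.

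**Figure D4:**
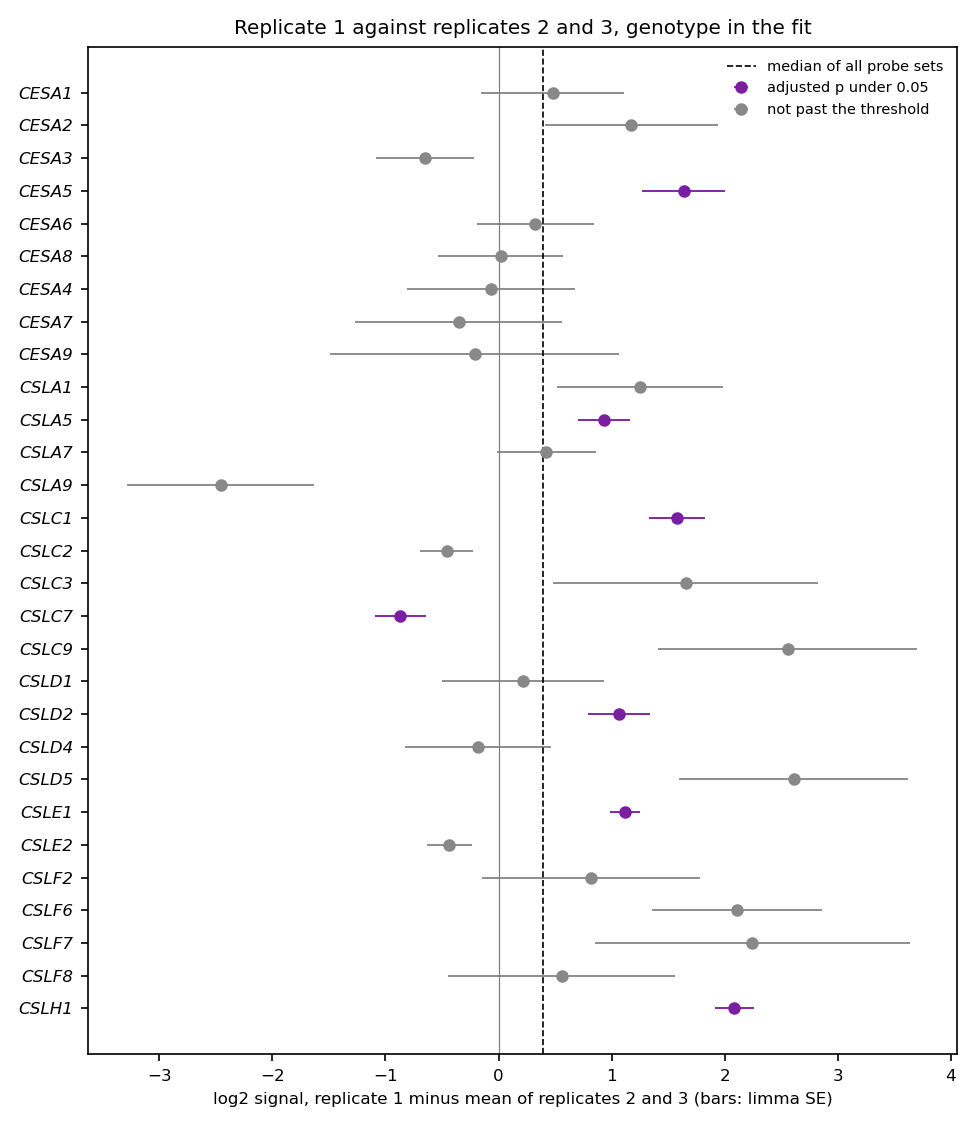
Difference of log2 signal between replicate 1 and the mean of replicates 2 and 3 for the 29 genes (rows), with the limma SE as bars and a dashed line at the median of all probe sets (0.389). The 7 coloured genes passed the threshold, and *CSLH1* at 2.09 and *CSLE1* at 1.12 have the shortest bars among them.

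Whether the genotype difference of replicate 1 differed from that of replicates 2 and 3 was tested by an interaction term. No probe set was called by limma, while 2348 and 2060 had a positive and a negative term of 1.5-fold or more when p was left unadjusted and under 0.05, and 2 of the 29 genes had an unadjusted p under 0.05. *CSLA9* had the smallest (3.42, SE 1.06, unadjusted p = 0.0193, adjusted p = 0.575). Its *sd37* signal was above the wild type in replicate 1 and below it in replicates 2 and 3. *CSLC1* had a term of -0.85 (SE 0.34, adjusted p = 0.611).

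Genes that work beside the synthases were followed from lists of symbols. Of 12 genes listed as partners of cellulose synthesis, which include COBRA-like proteins and sucrose synthases, none was called between the genotypes. Their differences lay below 0 in 6 and above in 6, with a median of -0.02. These counts include LOC4347540 (0.37, SE 0.97), a transcription factor gene that entered only through the synonym *BC1*. The smallest p-values belonged to *BC1L2*, a COBRA-like gene (-1.20, SE 1.08), and *SUS6*, a sucrose synthase gene (0.94, SE 0.88). *BC1* (LOC4333114), whose protein is needed for secondary-wall cellulose in rice, read 40.2, 74.9 and 46.3 against 48.1, 128.5 and 15.5. Its highest array was *sd37* replicate 2 and its lowest *sd37* replicate 3.

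By replicate number 7 of the 12 partners were called higher in replicate 1 and 0 lower, beside 10.3% and 11.5% of all probe sets. After division by each array's median 3 were called higher and 1 lower, beside 2374 and 14338 of all 57194 probe sets. *SUS5* read 1051.1, 142.6 and 181.0 against 658.6, 531.6 and 196.0, and *SUS6* read 618.0, 79.6 and 92.9 against 592.4, 438.2 and 124.7. Both had the form of *CSLF6* and *CESA5*, with the replicate 1 arrays and *sd37* replicate 2 above the other arrays. *BC1*, *SUS5* and these comparisons of form were picked after their values were seen.

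Of 4 genes of xylan synthesis none was called between the genotypes, with a median of 0.22. *IRX14* (0.33, SE 0.26) and *IRX9* (1.11, SE 1.01), whose proteins act on the xylan backbone, had the smallest p-values. *IRX14* was the higher in *sd37* in each replicate number. Of 14 genes of lignin synthesis none passed the adjusted threshold, 12 differences lay above 0 and 2 below, and the median was 0.36. Within replicates 1, 2 and 3 the median was 0.06, 0.60 and 0.09, and without *sd37* replicate 2 it was 0.40. *CAD8A*, a cinnamyl alcohol dehydrogenase gene, read 3.9, 6.4 and 3.4 against 41.4, 34.6 and 9.5 (2.44, SE 0.94, unadjusted p = 0.0323, adjusted p = 1), and *PAL06*, a phenylalanine ammonia-lyase gene, differed by 0.68 (SE 0.65). The *CAD8A* difference rests on weak signals, since only *sd37* replicate 1 reached the median of all signals (40.2). In replicate 1, 4 lignin genes were called higher and 2 lower, beside 10.3% and 11.5% of all probe sets. After division by each array's median they were 3 and 3, beside 2374 higher and 14338 lower of all 57194 probe sets. Of the xylan genes 1 was called lower in the deposited scale, 3 after that division and 0 after quantile normalization. Quantile normalization called 6932 of all probe sets lower.

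A probe set that the study's own list of changed genes describes as *CSLA11* is not named by the annotation and lies outside the 29 genes. It read 315.4, 309.6 and 364.5 in the wild type and 203.5, 151.9 and 209.9 in *sd37*, with no overlap between the genotypes. Of all probe sets 2.87% had every *sd37* array below every wild-type array, and 2.18% had an unadjusted p under 0.05 with 1.5-fold or more. The difference of this probe set was -0.82 (SE 0.30, unadjusted p = 0.0244, adjusted p = 1, and adjusted p = 0.566 with the replicate number as a block). That list was chosen on these arrays, so it is not independent evidence of the direction.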

How the data were processed

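The authors' service pre-processed and normalized the arrays, and the deposited values are probe set intensity signals on a linear scale with no detection calls. They came from an algorithm not given in the sources used here. For the RNA, the methods name a phenol extraction and the labels a column kit. Of 57381 probe sets, 187 controls were left out, values under 1 (1.76%) were set to 1, and log2 was taken. The number of arrays limits the precision. Each probe set was fitted with limma 3.58.1 in R 4.3.3 (lmFit and eBayes, trend by mean intensity), with the 6 arrays together, tests were two-sided, and p-values were adjusted over all probe sets by the Benjamini-Hochberg method. The script was tested on simulated data of independent arrays. Those data did not hold the wide replicate 1 difference seen here, so that test does not cover it. An exact test of 3 arrays against 3 gives a p of 0.1 at the least.

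The platform's table gave a gene for 22531 probe sets and none for 34663 of those fitted. The 95 with several genes were left out, and 22436 matched the reference annotation, which served for names and neighbours only. The build of the files is not stated, so no coordinates are given. Several probe sets of a type that can take up transcripts of related genes were among those used (*CSLC7* and *CSLD4*, for example). Members and lists were chosen with earlier results of these data known. Full statistics are given for every *CESA* gene, for the gene of smallest unadjusted p in each *CSL* family and for the first 2 by that p in each partner list. Other genes are shown by their signals. The list of secondary-wall regulators matched 0 measured genes. The symbol *BC1* matched 2 loci, 1 of them through a synonym of a transcription factor gene.

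To see whether replicate numbers pair the arrays, deviations from the genotype means were correlated across probe sets. Same numbers gave 0.394, 0.134 and 0.160, all above 0.1, so a fit with the number as a block was added, though crossing numbers 2 and 3 between the genotypes gave 0.163 and 0.130. Alternatives were a floor of 16, quantile normalization, division by each array's median, a filter at the overall median, the mean of all probe sets of a gene, no trend, the methods' analysis of variance, replicates 2 and 3 alone, the replicate number with 3 levels, and each array left out. Replicate 1 as a batch was added after seeing the data.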

Additional observations from a re-analysis of the deposited data

How the results depend on the processing

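No member was called between the genotypes under any alternative run, and with the replicate block the count stayed at 0 and no call of a member changed. The count at an unadjusted p under 0.05 with 1.5-fold was 1 with quantile normalization, median scaling, limma without a trend and analysis of variance (*CSLF8* each time), 2 with replicates 2 and 3 alone (*CSLC9* and *CSLF8*), and 0 to 1 with an array left out: *CSLC9* without wild-type replicate 1, *CSLF8* without *sd37* replicate 1 and *CESA4* without *sd37* replicate 2. Of all 57194 probe sets, 772 higher and 804 lower passed with quantile normalization, 733 and 770 with median scaling, and 1053 and 919 without a trend. By analysis of variance 731 and 668 passed, and with replicates 2 and 3 alone 1545 and 1588. Without wild-type replicate 1 these counts were 1553 and 781, without *sd37* replicate 1 559 and 1172, and without *sd37* replicate 2 699 and 505. Directions turned for *CESA9* with a floor of 16 (-0.052), for *CESA1* (-0.14) and *CESA2* (0.38) with the mean of all probe sets, and for *CESA7* with replicates 2 and 3 alone (0.67). With an array left out the difference ranged from -0.48 to 0.87 for *CESA1*, -0.93 to 0.51 for *CESA2*, -0.44 to 0.67 for *CESA3*, -0.21 to 0.98 for *CESA5*, -0.22 to 0.81 for *CESA6*, -1.47 to 0.24 for *CESA7*, -0.76 to 1.06 for *CESA9* and -0.82 to 0.57 for *CSLH1*. The cause was not tested. In the comparison of replicate 1, 7 to 8 genes were called under the other settings, not always the same ones. With an array of replicate 2 or 3 left out, 4 to 10 were called. They were 4 without wild-type replicate 2 (*CSLA5*, *CSLC7* and *CSLD2* lost), beside 4394 higher and 4845 lower of all 57194 probe sets. Without wild-type replicate 3 they were 5 (*CSLA5* and *CSLC7* lost), beside 4306 and 4918. Without *sd37* replicate 3 they were 5 (*CSLC7* and *CSLD2* lost), beside 4817 and 5607. Without *sd37* replicate 2 they were 10, beside 5947 and 6635. Without wild-type replicate 1 only 1 array of that number was left, and *CESA5*, *CSLA5* and *CSLC7* differed by 1.03, 0.63 and -0.84. *CESA5* and *CSLD2* were not called with a floor of 16, which called 5592 higher and 5181 lower of all probe sets. The filter at the overall median called 5610 higher and 7188 lower of 28597. With the replicate number at 3 levels 5602 and 6269 of all 57194 were called. The mean of all probe sets of a gene gave 5894 and 6586 of 57186. Of 6 genes with every array under the median of all signals, the differences rest on weak signals.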
